A study of Mus musculus with 6 samples.

Results

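The enzymes that write, copy, read and remove DNA methylation were followed in RNA of sorted mouse mammary cells, E18.5 fetal against adult basal, on one-color Agilent SurePrint G3 arrays. The genes were Dnmt1, Dnmt3a, Dnmt3b, Uhrf1, Tet1, Tet2, Tet3, Hells and Mbd2, a list of 9 named genes, chosen by name among 20660 genes that could be matched on the array. The list was chosen with earlier results of these data known, so the shares set beside it describe it and test nothing. Their 17 probes, of 55681 non-control probes in all, were found through the RefSeq transcript accession of each probe. Dnmt1, Dnmt3a and Hells had 1 probe each, Dnmt3b and Tet3 had 3, and Uhrf1, Tet1, Tet2 and Mbd2 had 2. All 17 passed the low-signal filter, and on each of the 6 arrays all 17 were well above background.

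Both populations came from female C57Bl6J mice, for which the labels give no allele or treatment, and the RNA was taken from freshly sorted cells. The fetal cells were CD31-CD45-Ter119-EpCAM++CD49f+ cells of embryonic day 18.5 glands (3 biological replicates), and the adult cells were CD31-CD45-Ter119-BP-1-EpCAM+CD49f+ basal cells of 8 to 12 week glands (3 biological replicates). BP-1 was used only in the adult sort, EpCAM was brighter in the fetal gate, and adult glands were digested overnight whereas fetal glands were digested briefly, so that age, gate and digestion cannot be told apart. How many animals made up a replicate is not given in the sources used here. Each array was hybridized with RNA of 1 replicate, and the share of probes detected well above background ran from 76.8% to 83.3% in fetal and from 76.4% to 82.0% in adult basal samples. The labels name a Low Input Quick Amp labeling kit and the methods its whole-transcript form, so which parts of a transcript were labeled is not settled.

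In vertebrate DNA, methyl groups sit mainly on cytosines of CpG pairs. DNMT3A and DNMT3B place new marks. DNMT1 copies existing marks onto the daughter strand after DNA replication, guided by UHRF1, which recognizes CpG pairs methylated on one strand only, and HELLS is a chromatin remodelling ATPase that methylation of packed chromatin requires. TET1, TET2 and TET3 oxidize methylcytosine, the start of its removal, and MBD2 is a reader that brings the NuRD repressor complex to methylated DNA. The copying machinery works during S phase, and in the mammary gland Dnmt1 is known to be needed for stem cell maintenance.

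Of the 9 members, Uhrf1 and Dnmt3b were called higher in fetal cells. Uhrf1 rose 146-fold over adult basal cells, and the brightest Dnmt3b probe rose 3.89-fold, and both passed limma's test after Holm adjustment. The Uhrf1 call held under all 17 alternatives and the Dnmt3b call was lost under 8 of them, and the other Dnmt3b probes did not pass the Holm rule. Hells, at 17.5-fold, and Dnmt1, at 2.71-fold, passed with Benjamini-Hochberg adjustment and not with Holm's. No member passed the 2-fold limit towards adult basal cells with either adjustment, although Tet2 and Mbd2 had higher signal on all 3 adult basal arrays. In bulk samples, fewer cells with a transcript and less RNA per cell cannot be told apart. A probe was called when the adjusted p was at most 0.05 and the difference at least 2-fold. By the brightest probe of each gene, the Holm rule called 2 of the 9 members, both higher in fetal cells, beside 11.2% of 15725 tested genes (6.02% higher in fetal and 5.20% higher in adult basal cells). The Benjamini-Hochberg rule called 4 of 9, all higher in fetal cells, beside 29.7% of tested genes (15.8% higher in fetal and 13.9% higher in adult basal cells). Towards adult basal cells neither rule called any member, and 2 of 9 members (Tet2 and Mbd2) had an unadjusted p under 0.05 there, beside 32.0% of tested genes. Towards fetal cells 5 of 9 did, beside 31.8%. At the level of probes, 3 of 17 were called with Holm adjustment (11.1% of 20448 tested probes, 5.92% higher in fetal and 5.18% higher in adult basal cells), all 3 higher in fetal cells, and 6 of 17 with Benjamini-Hochberg adjustment (30.0%). There was no overlap between populations in 14 of the 17 probes (69.0% of tested probes), 9 with the fetal arrays above (34.1%) and 5 with the adult basal arrays above (35.0%).

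**Figure D1:**
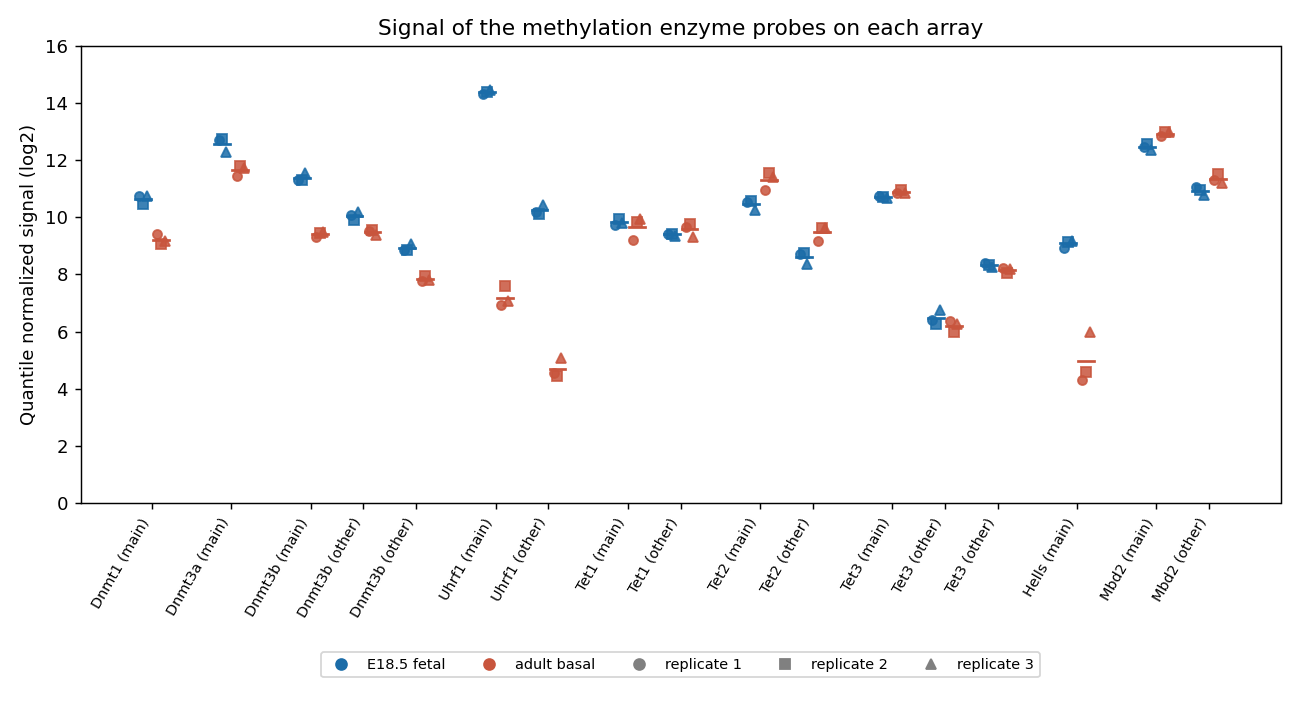
Quantile normalized log2 signal of each member probe (x axis, main meaning the brightest probe of the gene) on the 3 E18.5 fetal (blue) and 3 adult basal (red) arrays, with symbols for replicates and a horizontal line at each mean. The fetal arrays lie far above the adult basal arrays for both Uhrf1 probes and for Hells, and the Tet1 arrays overlap.

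Among the members with a promoter window, Uhrf1, Hells and Dnmt1 had a window that held the letters of a site for E2F factors. These transcription factors switch on S-phase genes. The windows are RefSeq sequences of the GRCm38.p6 build, running from 250 bases before to 50 bases after an annotated start, and they were found for 8 of the 9 members (13 windows, since some genes have several starts). They were searched on both strands for TTTCCCGC, TTTGGCGC, TTTCGCGC and TTTGCCGC. A match was present in 3 of the 13 windows, 1 each of Dnmt1 (chr9:20952574-20952873, minus strand), Uhrf1 (chr17:56304063-56304362, plus strand) and Hells (chr19:38930740-38931039, plus strand). These 3 windows are shown 5′ to 3′ because they hold a match, with the matched bases in capitals.
Dnmt1: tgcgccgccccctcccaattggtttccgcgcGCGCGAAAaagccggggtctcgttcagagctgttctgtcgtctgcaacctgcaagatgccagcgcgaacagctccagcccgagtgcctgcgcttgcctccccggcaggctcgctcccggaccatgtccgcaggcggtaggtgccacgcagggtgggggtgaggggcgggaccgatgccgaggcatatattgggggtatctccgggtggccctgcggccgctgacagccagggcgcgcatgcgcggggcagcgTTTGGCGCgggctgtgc
Uhrf1: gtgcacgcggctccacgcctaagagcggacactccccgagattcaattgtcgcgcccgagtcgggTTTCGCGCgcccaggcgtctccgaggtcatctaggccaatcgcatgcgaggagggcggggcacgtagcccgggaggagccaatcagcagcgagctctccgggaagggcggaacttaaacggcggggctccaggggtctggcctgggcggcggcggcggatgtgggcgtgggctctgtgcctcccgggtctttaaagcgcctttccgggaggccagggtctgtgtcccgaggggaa
Hells: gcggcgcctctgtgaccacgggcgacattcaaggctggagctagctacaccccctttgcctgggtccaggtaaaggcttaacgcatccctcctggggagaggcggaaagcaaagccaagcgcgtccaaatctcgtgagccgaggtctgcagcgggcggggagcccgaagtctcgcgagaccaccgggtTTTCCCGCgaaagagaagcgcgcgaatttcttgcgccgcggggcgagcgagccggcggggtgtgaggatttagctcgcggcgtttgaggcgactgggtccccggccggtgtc
In the Dnmt1 window TTTCGCGC was read on the opposite strand and TTTGGCGC on the gene's own strand. In the Uhrf1 window the match was TTTCGCGC and in the Hells window TTTCCCGC, both on the gene's own strand. The other 2 Dnmt1 windows, the other Uhrf1 window and the windows of Dnmt3a, Dnmt3b, Tet1, Tet2 and Tet3 held none of these letters. Of all 32851 windows, 2.26% held at least 1 match, and of the 2003 windows with 30 to 36 CpG pairs, the range around the 33, 33 and 34 pairs of the windows shown, 5.99% did. CCAAT, a box bound by NF-Y, was found in 2 Dnmt1 windows, both Uhrf1 windows and the Tet3 window, against 37.4% of all windows. TTTGAA, the cell cycle homology region, was found in 1 Dnmt1 window and in the Dnmt3b window, against 17.9%. No binding was measured, and a match describes the letters only.

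Uhrf1, the guide of maintenance methylation, had the largest difference of the 9 genes. Its brightest probe, A_55_P2035286, gave fetal log2 signals of 14.31, 14.38 and 14.44 and adult basal signals of 6.93, 7.58 and 7.06. The populations lay far apart, at means of 14.38 ± 0.07 and 7.19 ± 0.34 (SD, n = 3 each). The log2 difference was 7.19 (standard error 0.18, 95% interval 6.78 to 7.60, limma, Holm-adjusted p = 1.8e-05). The dimmer probe, A_66_P120074, was at 10.17, 10.12 and 10.44 in fetal cells and 4.56, 4.45 and 5.06 in adult basal cells. It gave a log2 difference of 5.55 (standard error 0.18, Holm-adjusted p = 1.4e-04), or 46.9-fold. Within the slides, each of which carried arrays of both populations, the brightest probe differed by 7.31 and 6.83. Slide 1 carried fetal replicate 1 with adult basal replicates 1 and 3, and slide 2 carried adult basal replicate 2 with fetal replicates 2 and 3. Each within-slide difference in this report thus rests on a single fetal array (slide 1) or a single adult basal array (slide 2). Both calls were kept under all alternatives. The size depended on how signal near the background was treated, with 6.59 for the brightest and 3.84 for the dimmer probe after the normexp background correction.

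The 2 Uhrf1 probes thus differed in size of effect. The brightest probe exceeded the second by 4.13, 4.26 and 4.0 log2 units in fetal samples and by 2.37, 3.13 and 2.00 in adult basal samples, without overlap. A single value with 3 arrays against 3 cannot give an exact two-sided permutation p below 0.10. The 2 probes are annotated to different RefSeq transcripts of the gene, and the part of transcript form in this gap was not tested.

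Hells, the chromatin remodeler, was low and uneven in adult basal cells. Its probe gave 8.93, 9.15 and 9.18 in fetal cells and 4.31, 4.58 and 5.98 in adult basal cells (log2 signal). Adult basal replicate 3 was the high one, and the populations did not overlap. The log2 difference was 4.13 (standard error 0.40, 95% interval 3.19 to 5.07), with a Holm-adjusted p of 0.25 and a Benjamini-Hochberg-adjusted p of 8.6e-05. Without adult basal replicate 3 the difference was 4.63 and the Holm-adjusted p 6.9e-04. The Holm call was also reached after the normexp correction (2.51, adjusted p = 0.0053) and with an offset of 16 before log2 (3.53, adjusted p = 0.029), both of which compress low signals. Under 13 of the 17 alternatives Hells was not called, among them each fit without any other single array. Within the slides the difference was 3.79 and 4.58.

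Dnmt1, which copies the marks, was at 10.76, 10.45 and 10.74 in fetal cells and 9.43, 9.05 and 9.16 in adult basal cells (log2 signal). All 3 fetal values were above all 3 adult basal values. The log2 difference was 1.44 (standard error 0.14, 95% interval of the fold 2.14 to 3.43), with a Holm-adjusted p of 0.31 and a Benjamini-Hochberg-adjusted p of 1.0e-04. It was between 1.36 and 1.55 under the alternatives. Within the slides it was 1.47 and 1.55.

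Both de novo enzymes had higher signal in fetal cells. For the brightest Dnmt3b probe, A_55_P2130535, the fetal arrays gave 11.30, 11.29 and 11.56 and the adult basal arrays 9.32, 9.45 and 9.50. The difference was 1.96 (log2, standard error 0.12, 95% interval 1.68 to 2.24, Holm-adjusted p = 0.010). Its size held between 1.86 and 2.01, but the Holm call was lost under 8 of 17 alternatives. It was lost with slide as a block, at an adjusted p of 0.065, and without any one array except adult basal replicate 2, at adjusted p from 0.077 to 0.14. Within the slides the difference was 1.89 and 1.97.

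The 3 Dnmt3b probes disagreed in size although they carry the same transcript accession. Probe A_55_P2008874 gave 1.08 (standard error 0.11, Benjamini-Hochberg-adjusted p = 9.8e-05) and A_55_P1975903 gave 0.58 (standard error 0.11, adjusted p = 0.0034), the latter under 2-fold. On the fetal arrays A_55_P2130535 exceeded A_55_P1975903 by 1.23, 1.38 and 1.37 log2 units. On the adult basal arrays the gap was -0.21, -0.09 and 0.13, smaller on every one of these arrays than on any fetal array. With the mean of the 3 probes, Dnmt3b differed by 1.21 and its Holm-adjusted p was 0.10. The populations did not overlap for any of the 3 probes.

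Dnmt3a, the other de novo enzyme, was at 12.69, 12.73 and 12.30 in fetal cells and 11.45, 11.80 and 11.72 in adult basal cells. The populations did not overlap, with fetal replicate 3 the lowest of its group. The difference of 0.92 (log2, standard error 0.16, 95% interval 0.55 to 1.29) had a Benjamini-Hochberg-adjusted p of 0.0016 and a Holm-adjusted p of 1.0, and with all arrays it was just under 2-fold. Within the slides it was 1.11, past 2-fold but with fetal replicate 1 as the only fetal array, and 0.72. Without fetal replicate 3 the difference was 1.05 and passed the Benjamini-Hochberg rule.

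**Figure D2:**
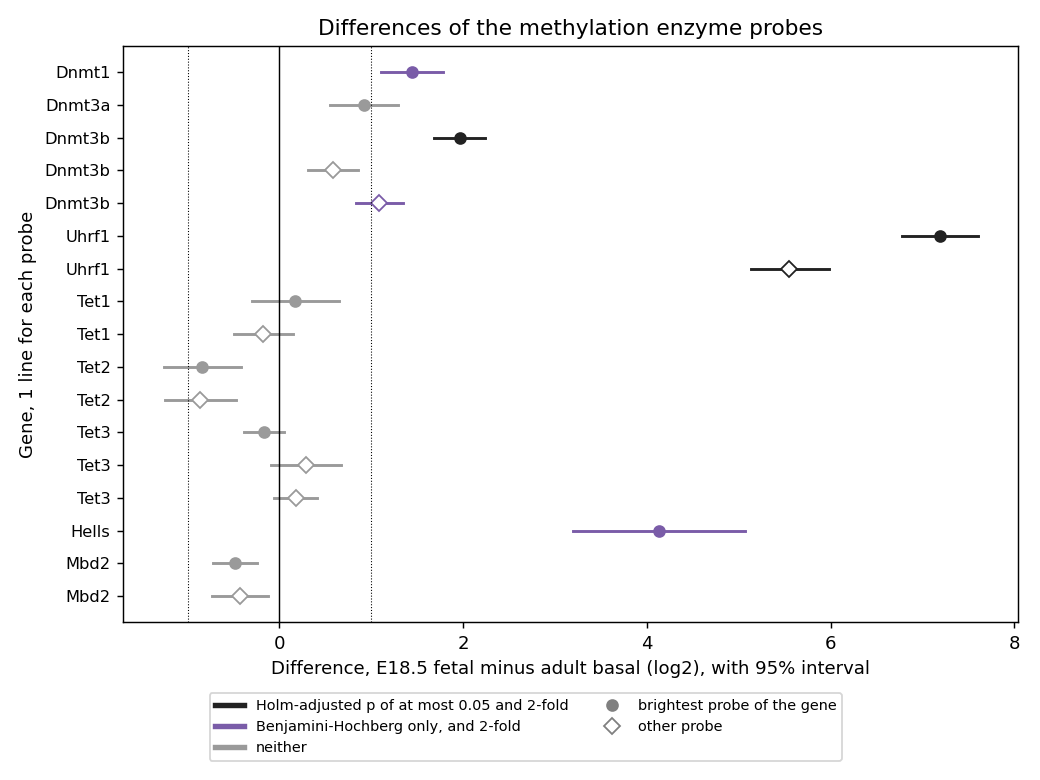
Fitted log2 difference of each member probe, E18.5 fetal minus adult basal, with its 95% interval. Filled circles are the brightest probe of a gene and open diamonds its other probes, the color gives the call, and dotted lines mark 2-fold. Uhrf1 and Hells lie far to the right, Dnmt1 and the Dnmt3 genes between 0.58 and 1.96, and the Tet genes and Mbd2 between -0.86 and 0.29.

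Among the oxidizing enzymes, Tet2 stood apart. Its brightest probe was at 10.52, 10.58 and 10.27 in fetal cells and 10.94, 11.55 and 11.41 in adult basal cells, and every adult basal array was above every fetal array. The log2 difference was -0.84 (standard error 0.18, 95% interval -1.26 to -0.42, Benjamini-Hochberg-adjusted p = 0.0046, Holm-adjusted p = 1.0). The second probe gave nearly the same, -0.86 (standard error 0.17). The fitted difference of the brightest probe did not reach 2-fold, except without adult basal replicate 1, where it was -1.02 (Benjamini-Hochberg-adjusted p = 9.7e-04). Within the slides that probe differed by -0.65 and by -1.12, the latter past 2-fold but with adult basal replicate 2 as the only adult basal array.

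For Tet1 no difference was detectable with these arrays. The brightest probe gave 9.73, 9.94 and 9.81 in fetal cells and 9.19, 9.82 and 9.95 in adult basal cells, which overlapped. The log2 difference was 0.17 (95% interval -0.30 to 0.65), and the other probe gave -0.18 (95% interval -0.50 to 0.15). A 2-fold difference in either direction lay outside both intervals. For Tet3 the brightest probe was at 10.75, 10.72 and 10.69 in fetal cells and 10.85, 10.97 and 10.84 in adult basal cells. The log2 difference was -0.17 (95% interval -0.39 to 0.05, Benjamini-Hochberg-adjusted p = 0.16). The 2 dimmer Tet3 probes pointed the other way, with 0.29 (95% interval -0.09 to 0.67) and 0.18 (95% interval -0.06 to 0.41), and none of the 3 passed at an unadjusted p under 0.05.

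Mbd2, the reader, was at 12.46, 12.55 and 12.37 in fetal cells and 12.85, 12.97 and 12.98 in adult basal cells, with no overlap. Its log2 difference of -0.48 (standard error 0.10, 95% interval -0.72 to -0.24, Benjamini-Hochberg-adjusted p = 0.0049, Holm-adjusted p = 1.0) was small but larger than the replicate spread. The second probe gave -0.43 (standard error 0.13, Benjamini-Hochberg-adjusted p = 0.024). By the brightest probe, the arrays of the populations were fully separated for 8 of the 9 members, 5 of them higher in fetal cells and 3 (Tet2, Tet3 and Mbd2) higher in adult basal cells. Among all tested genes 68.4% were separated, 33.4% with fetal and 35.0% with adult basal cells higher, so separation alone marks nothing in the list.

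The median log2 difference of the 9 members was 0.92, against -0.04 over all 15725 tested genes. The genes with the most similar pattern, by the root mean square distance between the 6 array values after centring each probe, were listed for each member as a description over 6 arrays. Nearest to Uhrf1 were Ephx2 (distance 0.19), Melk, which encodes a mitotic kinase (0.22), and Bex4 (0.25). Nearest to Hells was Cit, the citron kinase of cell division (0.17), and Ccdc122 lay at 0.24. Nearest to Dnmt3b were the histone gene H3c3, Gramd1b and Insig1 (each 0.06). Tet2 lay next to Kdm2a (0.01) and Kdm3a (0.05), which encode histone demethylases, and to Eif2ak3 (0.04). Nearest to Dnmt1 were Hip1 (0.05), Tcf3 (0.07) and Nin (0.07), and to Dnmt3a Zwint, Plod2 and Adgrg6 (each 0.09). Near Mbd2 lay Arid3b (0.03) and Sh3rf1 (0.04), near Tet3 lay Ildr2 (0.01), Wfdc1 (0.01) and Ggnbp1 (0.02), and near Tet1 lay Pim2 (0.09), Nemp1 (0.10) and Lin54 (0.10). Small differences leave small distances, so distances of members with small and large differences are not alike in scale.

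The partners of maintenance methylation were mixed. Of 13 partner genes, all tested, 4 rose in fetal cells by the Holm rule and none fell, beside 6.02% and 5.20% of all tested genes. The Benjamini-Hochberg rule called 6 higher in fetal and 1 higher in adult basal cells, beside 15.8% and 13.9%. Cdca7l, a paralog of Cdca7, rose by 2.58 (log2, standard error 0.14, Holm-adjusted p = 0.0059). Trdmt1, a relative of the DNMT family that methylates transfer RNA, rose by 2.08 (adjusted p = 0.019). Hdac1, a histone deacetylase that binds DNMT1 and NuRD, rose by 2.01 (adjusted p = 0.017, with 1.95 and 1.69 for its other probes at adjusted p = 0.070 and 0.11), and Pcna, the replication clamp that DNMT1 binds, by 1.92 (adjusted p = 0.0079). Ehmt1, a histone methyltransferase and the brightest of the list, differed by -0.81 (Benjamini-Hochberg-adjusted p = 0.0020), whereas its dimmer probe gave 0.05. A few were picked out after their values were seen. Cdca7, which activates HELLS, differed by 1.28 (Benjamini-Hochberg-adjusted p = 9.1e-05), Zbtb24, the activator of Cdca7, by -1.09 (adjusted p = 7.8e-05), and Uhrf2, the paralog of Uhrf1, by 0.02 with a standard error of 0.34 (0.29 for its dimmer probe). The median of the list was 0.54.

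Readers of methyl-CpG and subunits of NuRD lay closer to the whole array, with a median of 0.24. Of 17 genes tested, 1 was called by the Holm rule, beside 11.2% of all tested genes. It was Zbtb4, a zinc finger reader of methylated DNA that was lower in fetal cells by 1.68 (log2 difference -1.68, standard error 0.11, adjusted p = 0.024). Its 2 other probes gave -0.86 and -0.34. The Benjamini-Hochberg rule called 2 higher in fetal cells (the NuRD subunits Mta3, at 1.70 with 0.44 for its other probe, and Rbbp7, at 1.01 with 0.72 for its other probe) and 3 higher in adult basal cells, among them Zbtb4 and Zbtb38. For that rule the shares over all tested genes were 15.8% higher in fetal and 13.9% higher in adult basal cells. Chd4, the NuRD ATPase and brightest of the list, differed by 0.39.

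Genes of demethylation and base excision repair split in both directions, as did the whole array, with a median of 0.02 over 18 tested genes. The Holm rule called 2 higher in fetal and 2 higher in adult basal cells, beside 6.02% and 5.20% of all tested genes. The Benjamini-Hochberg rule called 3 and 3, beside 15.8% and 13.9%. Lig1, the ligase of replication and long-patch repair, rose by 1.82 (standard error 0.11, Holm-adjusted p = 0.0085), and Parp1, a sensor of strand breaks, by 1.74 (adjusted p = 0.012). Lower in fetal cells were Cxxc5, a CXXC-domain protein related to the lost DNA-binding domain of TET2 (log2 difference -2.16, adjusted p = 0.037), and Gadd45a, a stress gene also studied in demethylation (-1.58, adjusted p = 0.027). Ung, a uracil glycosylase and the brightest of the list, differed by -0.94 (Benjamini-Hochberg-adjusted p = 1.4e-04). Tdg, which excises the oxidized bases that TET enzymes make and was picked out after its value was seen, differed by 0.75 (Benjamini-Hochberg-adjusted p = 0.013), and its other probes gave 1.01 (adjusted p = 1.8e-04) and 0.17 (adjusted p = 0.21).

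Of the 17 tested genes of the methyl donor cycle and 2-oxoglutarate supply, which feed the DNMT and TET enzymes, the Holm rule in limma's test called none by the brightest probe. A dimmer probe of D2hgdh, an enzyme that makes 2-oxoglutarate from 2-hydroxyglutarate, passed it at 1.56 (Holm-adjusted p = 0.048), whereas the other probes of that gene gave -0.16 and 0.03. The Benjamini-Hochberg rule called 5 higher in fetal and 2 higher in adult basal cells, beside 15.8% and 13.9% of all tested genes. An unadjusted p under 0.05 was found for 13 (8 higher in fetal and 5 higher in adult basal cells), beside 63.8% of all tested genes. Idh2, a mitochondrial producer of 2-oxoglutarate and the brightest of the list, differed by 1.25 (Holm-adjusted p = 0.068). The median of the list was 0.22.

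Germline genes that promoter methylation is known to silence in somatic cells were in part below background in both populations. Of 14 genes, 7 (Dazl, Ddx4, Sycp1, Asz1, Hormad1, Stk31 and Mov10l1) had no array well above background, and 4 (Taf7l, Brdt, Slc25a31 and Tex101) were well above it on all 6. Mael, Sycp3 and Tex19.1 were above it on some arrays of both populations. Taf7l and Brdt passed the low-signal filter, and neither was called by the Holm or the Benjamini-Hochberg rule. Taf7l, the brightest of the list, differed by -0.14 (Benjamini-Hochberg-adjusted p = 0.53) and Brdt by -0.46 (Benjamini-Hochberg-adjusted p = 0.0093), with 0.18 for its dimmer probe. Of the 2, Brdt had an unadjusted p under 0.05. DNA methylation itself was not measured on these arrays.

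**Figure D3:**
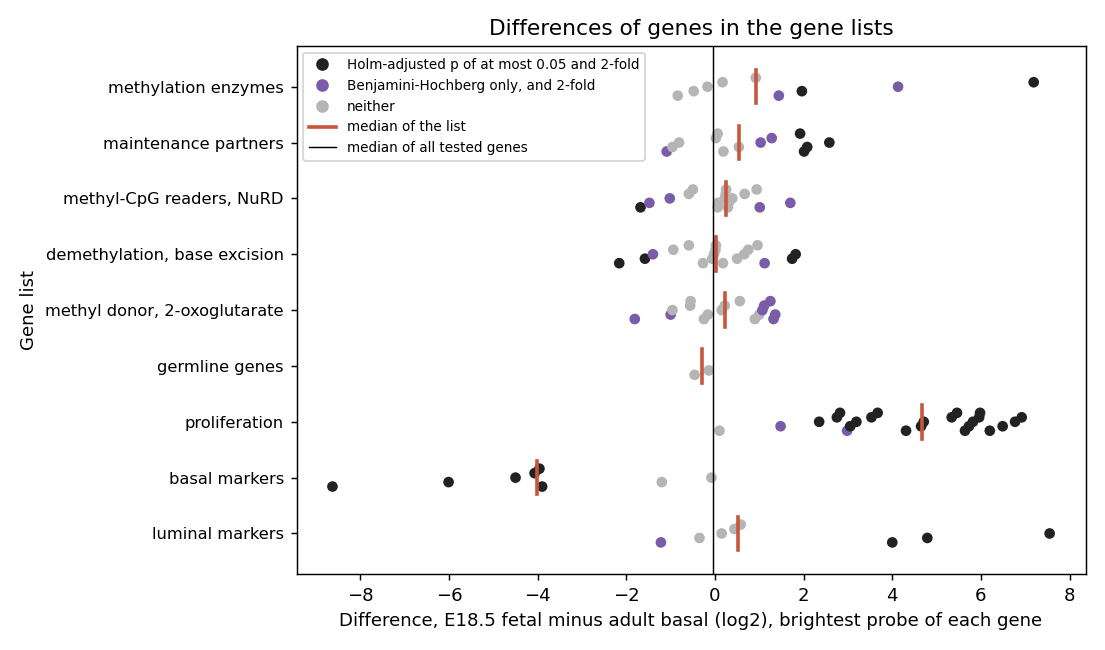
Log2 difference, E18.5 fetal minus adult basal, of each tested gene (brightest probe) in the gene lists, with the list medians in red and the median of all tested genes as a thin black line; the color gives the call. Proliferation genes lie to the right with a median of 4.68 and basal markers to the left with a median of -4.01. Genes that were not well above background in adult basal cells are drawn at their fitted values.

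Proliferation genes were higher in fetal cells. Of 24 genes, all tested, 21 rose in fetal cells by the Holm rule and none fell, beside 6.02% and 5.20% of all tested genes. The median was 4.68, or 4.57 with the genes below background at their bounds. Cdk1, the kinase of mitotic entry, rose by 6.77 (6.17 and 0.96 for its dimmer probes, the last not passing the Holm rule), Birc5, a passenger protein of mitosis, by 6.20, Mki67, the proliferation antigen, by 5.98, and Rrm2, a subunit of ribonucleotide reductase, by 5.96 (Holm-adjusted p from 2.5e-05 to 0.044). The summed linear signal of the 24 genes was 294000, 297000 and 314000 in the fetal samples against 31100, 30000 and 33900 in the adult basal samples. The brightest gene was Mcm6, a helicase subunit of the replication fork, and for Aurkb and Cdc6, higher by at least 27.5-fold and 21.6-fold, no adult basal array was well above background. These bounds set the fetal mean against the lowest signal counted as well above background, or the probe's own signal where higher. The part of proliferation in the differences of Uhrf1, Hells and Dnmt1 was not tested.

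Cell type markers were checked beside these results. Of 8 basal markers, 6 were higher in adult basal cells by the Holm rule, beside 5.20% of all tested genes. The largest log2 differences were those of the contractile genes Myh11 (-8.63), Cnn1 (-6.01), Mylk (-4.50) and Acta2 (-4.07, the brightest of the list). The summed signal of the 8 markers was 65600, 57900 and 52200 in the fetal samples against 823000, 760000 and 752000 in the adult basal samples. On each of the 6 arrays all 8 were detected well above background. The probes of the basal regulator Trp63 disagreed, with -0.08 (standard error 0.10) for the brightest and -3.06 (standard error 0.10, Holm-adjusted p = 1.9e-04) for the other. Of 8 tested luminal markers, Elf5, a factor of luminal progenitors that differed by 7.55, Kit, a receptor of the same cells that differed by 4.0, and the casein gene Csn3, higher by at least 7.87-fold, passed the Holm rule in fetal cells. The Holm rule called 6.02% of all tested genes higher in fetal cells. Krt19 passed the Benjamini-Hochberg rule towards adult basal cells (-1.22, adjusted p = 4.1e-04), beside 13.9% of all tested genes. Krt18 (0.58), Krt8 (0.44) and Gata3 (0.15) passed neither rule. The probes of Prlr, the prolactin receptor, differed in direction, with -0.35 for the brightest and 1.85 (Holm-adjusted p = 0.026) for the other. For Esr1, the estrogen receptor, the brightest probe did not pass the low-signal filter. Its log2 means were 4.74 in fetal and 5.80 in adult basal cells, and within each slide it differed by -1.01. The tested probe, well above background on 1 of 3 fetal arrays, gave a fitted -3.58 (Holm-adjusted p = 0.25, Benjamini-Hochberg-adjusted p = 8.6e-05). Its fetal mean of 3.35 lay near the background limit, so the size of that difference is uncertain. The summed signal of the list was 186000, 191000 and 149000 (fetal) against 127000, 121000 and 121000 (adult basal). Krt18 was its brightest gene, and Csn3 was below the background limit on all 3 adult basal arrays.

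Of 6 tested fibroblast markers, Dcn, which encodes decorin, was higher in adult basal cells by the Holm rule (log2 difference -3.78). The Benjamini-Hochberg rule added Lum (-1.05), and the median was -0.89. In that direction the Holm rule called 5.20% and the Benjamini-Hochberg rule 13.9% of all tested genes. An unadjusted p under 0.05 was found for 5 of the 6, all towards adult basal cells, beside 32.0% of all tested genes in that direction. The summed signal was 5430, 5720 and 7030 (fetal) against 15600, 17900 and 26000 (adult basal), Col1a2 was the brightest gene, and no fetal array showed Dpt well above background. No leukocyte, endothelial or erythroid marker was called by the Holm rule in limma's test. Tested were 5 leukocyte, 4 endothelial and 2 erythroid markers. By the Benjamini-Hochberg rule Lyz2, Cdh5 and Emcn were higher in adult basal and Hbb-bt in fetal cells, beside 13.9% and 15.8% of all tested genes. These 4 were also the markers of these lists with an unadjusted p under 0.05, beside 63.8% of all tested genes. The summed leukocyte signal was 16100, 12400 and 14300 against 13800, 15400 and 15600, with Csf1r the brightest. Its summed probe had log2 means of 13.18 (fetal) and 13.24 (adult basal), against 10.90 and 11.14, and 8.82 and 9.48, for its other probes. The summed endothelial signal was 12200, 10800 and 12500 against 12700, 13600 and 11000, with Kdr the brightest and Tek below the background limit on all 3 fetal arrays. The Kdr probe in that sum had means of 13.45 and 13.49, against 6.20 and 6.87 for the other Kdr probe. The erythroid sum was 620, 1720 and 1490 against 465, 1010 and 473, with Hba-a1 the brightest and Hbb-bt below the background limit on all 3 adult basal arrays. The part of these cells in the differences of the methylation enzymes was not tested.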

How the data were processed

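Each of 6 samples (3 E18.5 fetal, 3 adult basal) was hybridized to its own array. The groups and replicate numbers were taken from the sample titles. The authors scanned the arrays and deposited Feature Extraction 11.0.1.1 spot intensity values, background subtracted within each array, with a second table of log2 values that the authors quantile normalized in GeneSpring. Flags of each spot gave outliers and detection.

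Control spots and outlier spots (104 to 326 an array) were left out, log2 processed signals were averaged by probe and the 6 arrays were quantile normalized. Of 55681 probes, 27235 matched 20660 genes of the RefSeq table of GRCm38.p6 by accession. The files read here carry no gene name column. Probes in the lowest of 3 k-means clusters (100 starts) in both populations were removed, by the kind of filter that the study's methods describe but run on the matched probes only, which left 20448 (37830 when run on all probes). The test was limma's (version 3.58.1, R 4.3.3, lmFit, then eBayes), adjusted over all tested probes by Holm's method, with Benjamini-Hochberg adjustment as a second rule. No array had saturated spots. The number of arrays limits the precision. Gene lists are described by the brightest probe of each gene, with no list test.

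The members and lists were chosen with earlier results of these data known. The genes named are all members, up to 4 called genes of each list with the largest difference and signal on all arrays, the brightest gene of each list and the nearest patterns. Other genes of the lists that the text names (those below background, called by the Benjamini-Hochberg rule alone or with probes that disagree, and a few partners) were chosen after their values were seen. A few genes that the rule or the lists hold are not reported here. The range of CpG counts for the promoter background was chosen after the windows were seen. Chd3 and Cd68 had no matched probe. Alternatives were the 75th percentile normalization, the deposited values, normexp (offset 50), 2 other filters, all probes, the other adjustment, eBayes with trend, an offset of 16, each array left out, replicate or slide as a block, and averaging the probes of each gene. Python 3.11.15, pandas 2.3.3, numpy 2.4.6 and matplotlib 3.10.9 were used for tables and plots.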

Additional observations from a re-analysis of the deposited data

How the results depend on the processing

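The Uhrf1 call held under all 17 alternatives fitted to probes and when probes were averaged per gene. The number of members called was 2 with Holm adjustment. It was 1 (Uhrf1) without the low-signal filter, with the replicate block, with slide as a block and with probes averaged per gene, 1 to 2 with each array left out, 3 (Hells added) with normexp and with the offset of 16, and 4 with Benjamini-Hochberg adjustment. The number of probes called on the whole array, 2270, was 1182 without the low-signal filter, 6133 with Benjamini-Hochberg adjustment, 1302 with the replicate block, and 948 (without fetal replicate 1) to 1949 (without adult basal replicate 2) with each array left out. It was over 1.5 times lower without adult basal replicate 1 (1469) or 3 (1327) and without fetal replicate 2 (974) or 3 (1055). The Benjamini-Hochberg rule called Dnmt1, Dnmt3b, Hells and Uhrf1 in each of these fits to probes, joined by Tet2 without adult basal replicate 1 and by Dnmt3a without fetal replicate 3. The only member probe that turned its direction was A_55_P2122997 of Tet1, with -0.06 to 0.32 when each array was left out. The replicate numbers were not found to pair the samples: deviations of same-numbered arrays correlated at -0.032, 0.093 and 0.049, and with the replicate block the Dnmt3b call was lost (adjusted p = 0.080). The cause of these changes was not tested. The lowest adult basal signal well above background was 3.21 to 4.13 on the log2 scale, and low signals there can limit fold changes. The dimmer Uhrf1 probe lay above that limit (4.45 to 5.06), and the part of low signal in its fold was not tested.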
